A study of Mus musculus with 72 samples.

Results

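The report concerns where the transcription factor MITF was found on the chromatin of mouse microglia, measured by chromatin immunoprecipitation and sequencing (ChIP-seq) and read against input chromatin of the same genotype. It rests on 10 of the 72 samples of the series: 3 MITF and 3 input samples of wild-type mice (WT), and 2 MITF and 2 input samples of mice lacking Sgsh (SgshKO). The authors' table gives 1 merged value per group at each of 91770 open chromatin peaks of microglia. MITF was at least 2-fold over input at 37331 of these peaks, or 40.7%, as the mean of both genotypes on a log2 scale, and these are called MITF-bound below. Since each group is 1 merged pool, sizes of binding carry no test and no replicate error.

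All mice were of the C57BL/6 strain. Nuclei were isolated from brain and sorted for the myeloid factor PU.1, without OLIG2 or NEUN, which mark oligodendrocyte-lineage and neuronal nuclei. PU.1 is also carried by border macrophages and other myeloid cells of the brain. Chromatin for MITF, TFEB and TFE3 was fixed with a protein cross-linker and then with formaldehyde. The labels used here give no age for the factor samples; the histone libraries used beside them, for H3K27 acetylation (H3K27ac, a mark of active promoters and enhancers), came from mice of 4 and 8 months, with 2 libraries per genotype and age. The labels do not say that replicates are separate animals, so the p-values on H3K27ac measure the spread between these libraries, which may be technical.

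MITF, TFEB, TFE3 and TFEC form a small family of basic helix-loop-helix leucine zipper factors that bind E-box letters as homodimers or as dimers with each other. Members of the family can be held in the cytoplasm when the kinase complex mTORC1 is active at the lysosome. Such members enter the nucleus when lysosomes are starved or damaged, where they switch on genes of lysosomes and autophagy. MITF is best known as the master factor of melanocytes and as a factor of osteoclasts and other myeloid cells. Sgsh encodes sulfamidase, a lysosomal enzyme that degrades heparan sulfate; its loss causes the storage disorder mucopolysaccharidosis type IIIA.

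The letters around MITF peaks are shown first, because the family reads a short palindrome, CACGTG. Below are stretches of promoters on the strand of the gene, with CACGTG in capitals, taken from RefSeq promoter windows on GRCm38.p6. Lamp1, Mcoln1, Ctsd, P2ry12 and Sgsh belong to the genes named by the fixed rule. Clcn7, Naglu and Rragc were added after their values were seen, as leading promoters of their lists that hold the letters. The stretch at the centre of the Fnip2 promoter peak, strongly bound, is shown as a contrast without the letters.
Lamp1 (chr8:13159106-13159190, + strand): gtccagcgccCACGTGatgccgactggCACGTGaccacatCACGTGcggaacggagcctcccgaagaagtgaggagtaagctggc
Clcn7 (chr17:25133336-25133420, + strand): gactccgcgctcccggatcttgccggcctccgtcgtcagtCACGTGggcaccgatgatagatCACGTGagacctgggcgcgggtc
Mcoln1 (chr8:3500434-3500519, + strand): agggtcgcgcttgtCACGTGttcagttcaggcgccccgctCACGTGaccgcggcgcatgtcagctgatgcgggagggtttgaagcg
Naglu (chr11:101069981-101070066, + strand): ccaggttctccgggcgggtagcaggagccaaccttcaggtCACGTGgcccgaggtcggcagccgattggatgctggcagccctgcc
Rragc (chr4:123917281-123917366, + strand): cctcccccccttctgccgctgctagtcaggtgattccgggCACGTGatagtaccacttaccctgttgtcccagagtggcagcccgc
Ctsd (chr7:142387880-142387965, - strand): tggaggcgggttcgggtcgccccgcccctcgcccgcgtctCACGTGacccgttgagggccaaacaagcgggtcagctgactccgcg
Sgsh (chr11:119355494-119355579, - strand): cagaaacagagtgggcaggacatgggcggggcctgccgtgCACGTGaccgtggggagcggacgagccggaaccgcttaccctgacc
P2ry12 (chr3:59263168-59263235, - strand): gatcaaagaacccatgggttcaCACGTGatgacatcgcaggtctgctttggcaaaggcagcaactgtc
Fnip2 peak centre (chr3:79567790-79567875, - strand): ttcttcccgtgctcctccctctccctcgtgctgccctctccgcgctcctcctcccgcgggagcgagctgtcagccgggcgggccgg
Lamp1, the main glycoprotein of the lysosomal membrane, had 4 copies of CACGTG in its 300-base window, of which the printed stretch holds 3, and Clcn7, a lysosomal chloride-proton exchanger, had 2. Mcoln1, the lysosomal calcium channel, and Ctsd, the protease cathepsin D, also had 2 each, of which the printed Ctsd stretch holds 1. In Lamp1 the nearest copy lay 139 bp from the peak centre, outside the 200 bp in which MITF tags were counted. The nearest copy lay 10 bp from the centre in Clcn7, 50 bp in Mcoln1 and 55 bp in Ctsd. In Naglu, which encodes the heparan sulfate enzyme N-acetylglucosaminidase, the copy lay 73 bases before the annotated start and 79 bp from the peak centre. In Rragc, which encodes a Rag GTPase of the mTORC1 pathway, the copy lay 25 bp from the centre of the peak, and in Sgsh it lay 34 bp away. In P2ry12, the purine receptor typical of resting microglia, it lay 232 bp away. Of the 11 bound genes among those fixed by name that have a window, 4 held CACGTG and 7 did not. Among the other leading promoters of the lists, 19 bound genes had a window, of which 5 held CACGTG and 14 did not. These counts take any window of the gene, which need not lie at the bound peak. The copy of Atg7, for instance, lay 27846 bp from its peak centre. Most windows lacked the letters, so the stretches shown are not typical of leading promoters. Cd68, Hexa and Cd63 were among the genes without it. Of these only Cd68 had its peak centre inside the window and at least 50 bp from its edge, so the letters at the Hexa and Cd63 peaks are not settled. A match describes the letters and does not show a binding site.

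Across promoters, CACGTG was more frequent where MITF was high. The count covers 7066 peaks whose centre lay inside a 300-base RefSeq promoter window (250 bases before the start and 50 after it) and at least 50 bp from its edge. CACGTG reads the same on both strands, and 7.15% of all 32851 windows held it. It was in 14.2% of the 3877 windows with a bound peak, in 7.62% of the 3189 with a peak that was not bound, and in 61 of the 258 windows (23.6%) where MITF was at least 16-fold over input. Of the windows without the letters 53.0% were bound, of those with 1 copy 67.5%, and of those with at least 2 copies 85.1%. The median log2 MITF over input was 1.14, 1.79 and 2.72 in these groups.

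The longer palindrome TCACGTGA was rarer. It contains CACGTG, so the counts overlap. It was in 2.81% of bound and 0.815% of other windows, and 80.7% of the peaks in windows that held it were bound. CATGTG, the E-box core of the M-box of melanocyte promoters, searched on both strands, differed less, at 9.05% of bound and 7.06% of other windows. The letters CAGCTG, an E-box read by other factors, were in 15.9% and 15.1%, and those of AP-1 (TGACTCA, both strands) in 3.89% and 3.76%. GGAAGT, an ETS-type motif searched on both strands, was in 33.9% of bound and 25.4% of other windows, and the GC-rich CGCGCG in 28.1% and 20.2%. Base composition also moved with binding, but within each of 4 groups of windows by GC content the median MITF ratio was higher with CACGTG than without. It was 1.64 against 0.84 in the group of lowest GC and 2.21 against 1.36 in that of highest GC. Within 100 bp of the peak centre the ratio varied little with the distance of the letters, with a median log2 ratio of 2.05 within 25 bp, 1.92 between 25 and 50 bp and 1.99 between 50 and 100 bp. Farther away it was 1.53. The same letters went with higher ratios of the relatives: the medians with and without CACGTG were 1.56 and 0.94 for TFEB and 3.19 and 2.37 for TFE3.

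**Figure D1:**
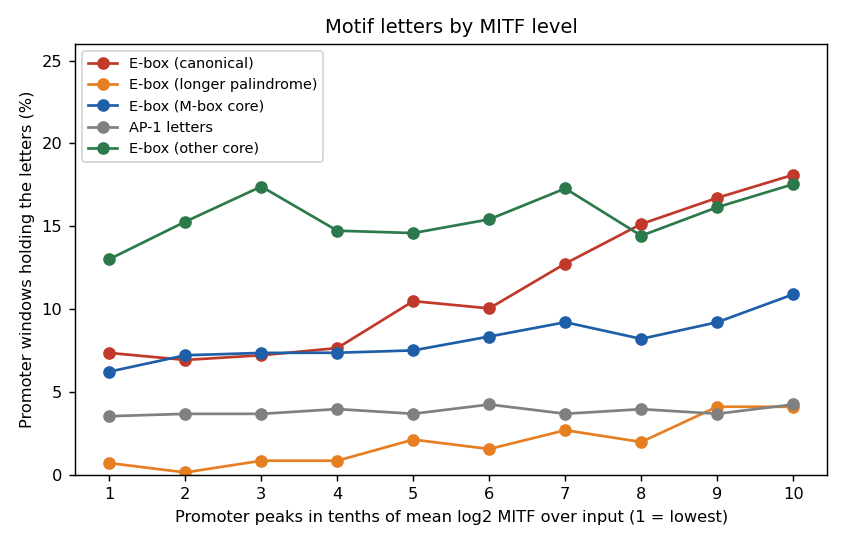
Share of promoter windows (%) that hold each set of letters, on the vertical axis, against 10 equal groups of promoter peaks ordered by mean log2 MITF over input on the horizontal axis. The canonical E-box line rises from 7.36% in the lowest group to 18.1% in the highest, while the AP-1 line stays between 3.54% and 4.24% and the other-core E-box line goes from 13% to 17.5%.

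The signal behind these ratios was uneven between pools. The microglial factor and input pools held between 27393762 and 48984909 tags, of which MITF placed 10.7% (WT) and 17.9% (SgshKO) in the open peaks, against 4.86% and 2.63% for input. In the SgshKO pools 47.6% of peaks had no input tag and 33.4% no MITF tag, while in WT 4.06% had no input tag and 23.9% no MITF tag. SgshKO ratios therefore often stand against an input of 0, and where that happens a fold is given below as a lower limit against 3 tags. Log2 ratios use tags per 10M of the pool's total plus 1, and folds with an interval use the tags without that addition. Markers were read from the open peaks and the separate H3K27ac libraries, so they do not check the nuclei of the factor pools. By these the sort looked microglial: 9 of 10 microglial markers had a promoter peak, with a median H3K27ac of 316 tags per 10M. Promoter peaks of neuronal (1 of 6) and monocyte or neutrophil (1 of 5) markers had too little H3K27ac to test. A promoter peak was present for 4 of 7 oligodendrocyte, 2 of 5 astrocyte, 3 of 5 endothelial and 2 of 5 border macrophage markers, with H3K27ac of at most 55.4.

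MITF binding was spread over promoters, introns and intergenic sequence. In the authors' annotation 48.8% of peaks at promoters were bound (7932 of 16248), against 38.8% in introns, 40.8% between genes and 30.4% in exons. The strongest sites by the mean of both genotypes lay largely away from starts. Within 1 kb of a start lay 25.9% of all peaks and 27.5% of the bound ones, but 20.1% of the 3001 peaks at which MITF was at least 16-fold over input. That order held in WT, where 13.2% of peaks at 16-fold lay within 1 kb, and turned in SgshKO, where 29.9% did. In single genotypes, 28052 peaks passed 2-fold in WT and 46222 in SgshKO, and 18531 passed in each. The weakest bound peaks had a median of 13 MITF tags in WT and 24 in SgshKO among the 1000 peaks just above the threshold. The 1000 just below it had 12 and 20. The mean log2 ratio ran from 1.00 to 1.05 in the first group and from 0.949 to 1.00 in the second.

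All of the 10 strongest bound peaks with input tags in both genotypes lay beyond 1 kb of a start, with mean log2 ratios from 6.30 to 6.87. The first lay at -17323 bp from the start of Atp6v1c1, a subunit of the V-ATPase, the proton pump that acidifies lysosomes (chr15:38644481-38644681, mm10). MITF gave 121 tags per 10M there in WT and 730 in SgshKO, over inputs of 2.25 and 0.99. In WT that was 53.7-fold over input (95% counting interval 29.7 to 109). A peak in intron 14 of Ssh1, whose nearest start is that of Coro1c, an actin-binding coronin, had 125 and 630 MITF tags per 10M over inputs of 2.86 and 0.50. The one in intron 2 of Runx1, a transcription factor of blood and microglia, had 193 and 730 over inputs of 15.5 and 0.25. Runx1 also had the largest number of MITF-bound peaks of any gene, 44 of 93 assigned to it, where 40.7% of all peaks were bound. This count does not allow for how many open peaks a gene has, so it does not mark Runx1 as a preferred target.

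The other 7 of the strongest peaks lay in introns of Cyth4, Nek6 and Heatr1, or between genes nearest to Mir7237, Scaf11, Rpl34 and Olfr111. None of the 10 was open in oligodendrocytes. All were also among the strongest for the relatives, with percentiles among all peaks of at least 99.89 for TFEB and 99.76 for TFE3. MITF was at least 2-fold higher in SgshKO at 6 of them and at least 2-fold lower at 1, that of Cyth4. Over all peaks the shares were 25.5% and 32.9%. H3K27ac was higher in SgshKO at 9 of 10 at 4 months and at 7 of 10 at 8 months, and lower at none (limma). Of all tested peaks 7.87% and 6.87% were higher at these ages. The 10 were picked on a mean that includes the SgshKO MITF pool, so these counts are not independent of the genotype. A peak in intron 1 of Tfeb (chr17:47757140-47757340), named after its values were seen, had a higher ratio, 7.22, and was left out of the 10 by the rule because its SgshKO input was 0. It had 224 MITF tags per 10M in WT and 726 in SgshKO.

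Promoters of lysosomal genes were bound by MITF in most cases. Over all 13129 genes with a peak within 1 kb of the start, 6675 were bound (50.8%), with a median log2 ratio of 1.03. For lysosomal hydrolases 37 of 43 were bound, with a median of 2.92. The lysosomal membrane proteins had 23 of 27 bound and a median of 2.97, and the V-ATPase subunits 17 of 17 and 3.26. Lists carry no test here, since members and lists were chosen with earlier results known. With at least 2-fold in each genotype the counts were 24, 13 and 12, against 3095 of all genes (23.6%), and with the input of both genotypes pooled, an alternative chosen after seeing the data, 36, 20 and 16, against 5726 (43.6%). In these lists 12 of 36 hydrolase genes with a promoter window held CACGTG, as did 7 of 22 membrane genes and 4 of 12 V-ATPase genes, against 8.09% of all genes.

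Among the hydrolases, the highest ratios were at Hexa (5.56), Naglu (5.01), Ctss (4.29) and Asah1 (4.21). Hexa encodes the alpha subunit of hexosaminidase A, which breaks down gangliosides. Its promoter had 84.0 MITF tags per 10M in WT and 285 in SgshKO, over inputs of 7.76 and 0.25, which in WT was 10.8-fold (7.65 to 15.7). At Naglu, MITF was 313 in WT and 419 in SgshKO over inputs of 9.39 and 11.2, so both genotypes were far above input, 33.3-fold (24.8 to 45.9) and 37.6-fold (27.9 to 51.7). At Ctss, the microglial protease cathepsin S, MITF was 191 and 194 over inputs of 13.7 and 5.70. With the input of both genotypes pooled Hexa stood at 4.86, below Naglu at 5.02. Sgsh itself, the gene deleted in the mutant, did not pass the threshold, with a mean log2 ratio of 0.89. There MITF gave 2.56 tags per 10M in WT, below an input of 8.57, and 44.8 in SgshKO over 3.97. The other hydrolase promoters not bound were those of Ctsa, Ids, Smpd1, Fuca1 and Lgmn.

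In the membrane list, strong promoters included those of Cd68, a heavily glycosylated phagocyte protein (5.99), Cd63, a tetraspanin of late endosomes (5.39), and Lamp1 (4.74). With pooled input they stood at 4.32, 5.39 and 4.54, so the place of Cd68 rests on its empty SgshKO input. Cd68 had 221 MITF tags per 10M in WT and 586 in SgshKO, over 31.0 and 0 input. Cd63 had 41.6 and 558 over 2.04 and 3.47, or 20.4-fold (10.7 to 43.7) and 161-fold (95.7 to 295). Lamp1 had 12.4 and 128 over 1.43 and 0. After scaling of the pools, SgshKO exceeded WT 8.09-fold at Cd63 (6.69 to 9.86), 6.21-fold at Lamp1 (4.37 to 9.09) and 1.60-fold at Cd68 (1.46 to 1.76). Mcoln1 had 14.2 and 105 over 1.22 and 1.98, and Ctsd 70.8 and 175 over 12.4 and 3.97.

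Every V-ATPase subunit with a promoter peak was bound, from 1.43 at Atp6v0a1 to 5.50 at Atp6v1b2. At Atp6v1b2, a subunit of the catalytic part of the pump, MITF was 52.6 tags per 10M in WT and 224 in SgshKO over inputs of 4.90 and 0, at least 302-fold over input in SgshKO. Atp6v1g1 stood at 5.10 and Atp6v1c1 at 4.86. Atp6v0d2, an osteoclast form of a pump subunit, had no peak within 1 kb, and 2 of its 5 peaks were bound. The nearest, 26722 bp downstream of the start, had no MITF tag in either pool against inputs of 9.39 and 22.1.

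The other lists are read against the same 50.8% and median of 1.03. Autophagy genes were bound at 18 of 27 promoters (median 1.70), with Wdfy3, an adaptor for aggregates, highest at 5.04 and the small GTPase gene Rab7 at 3.98. The autophagy receptor gene Sqstm1 was not bound, at a mean log2 ratio of -0.86, with 1.46 and 0.93 MITF tags per 10M under inputs of 4.70 and 1.73. Among 25 genes of the mTORC1, Rag and folliculin machinery, which can control nuclear entry of family members, 18 were bound (median 2.06). With 2-fold in each genotype 11 were bound. Rragc had 99.7 and 279 over inputs of 13.9 and 0, and Fnip2, a folliculin partner, 116 and 411 over 7.55 and 2.73. Flcn, which encodes folliculin, was weaker, with 25.6 and 99.7 over 18.4 and 6.94, a ratio of 1.39-fold (1.00 to 1.92) in WT. Mtor itself was at -1.20.

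Genes of disease-associated microglia, a state described in neurodegeneration, were bound at 22 of 29 promoters (median 2.33). Apoe, the lipid carrier of that state, stood at 5.95, with 49.6 and 323 MITF tags per 10M over inputs of 3.27 and 0. Trem2, the lipid receptor, stood at 2.44, with 30.7 and 106 over 14.5 and 6.44. Not bound were Lpl, Itgax, Cd9, Gpnmb, Lgals3, Timp2 and Ch25h. Homeostatic genes were bound at 15 of 19 promoters (median 1.90), led by Cd33, an inhibitory sialic acid receptor (4.51), and Siglech (3.12). P2ry12 had 37.2 in WT and 15.1 in SgshKO over 8.17 and 3.72. Lipid-handling genes were bound at 12 of 18 (median 1.43). At a 4-fold threshold homeostatic and lipid-handling genes had 7 bound promoters each, against 3885 (29.6%) of all genes. The 10 lists share 17 of their 218 distinct genes.

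Known targets of MITF in melanocytes and osteoclasts seldom had an open promoter here. Of 17 such genes 11 had at least 1 bound peak anywhere, beside 10107 of 17123 in all genes. No promoter peak was present at 11, among them the pigment genes Tyr, Tyrp1, Dct, Pmel and Mlana and the osteoclast genes Ctsk and Acp5. Of the 6 with a peak 3 were bound, beside 50.8% of all genes: Clcn7 (4.58), its partner Ostm1 (2.68) and the survival gene Bcl2 (2.24), which falls below the threshold (0.98) with a pseudocount of 5. Clcn7 had 28.1 and 146 MITF tags per 10M over 6.53 and 0. Gpnmb, a melanosome and lysosome glycoprotein, had no tag in any of the 4 pools at the peak nearest its start. A peak at -15253 bp from the start was bound through SgshKO, with 22.8 tags per 10M against 0 in WT and in both inputs.

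**Figure D2:**
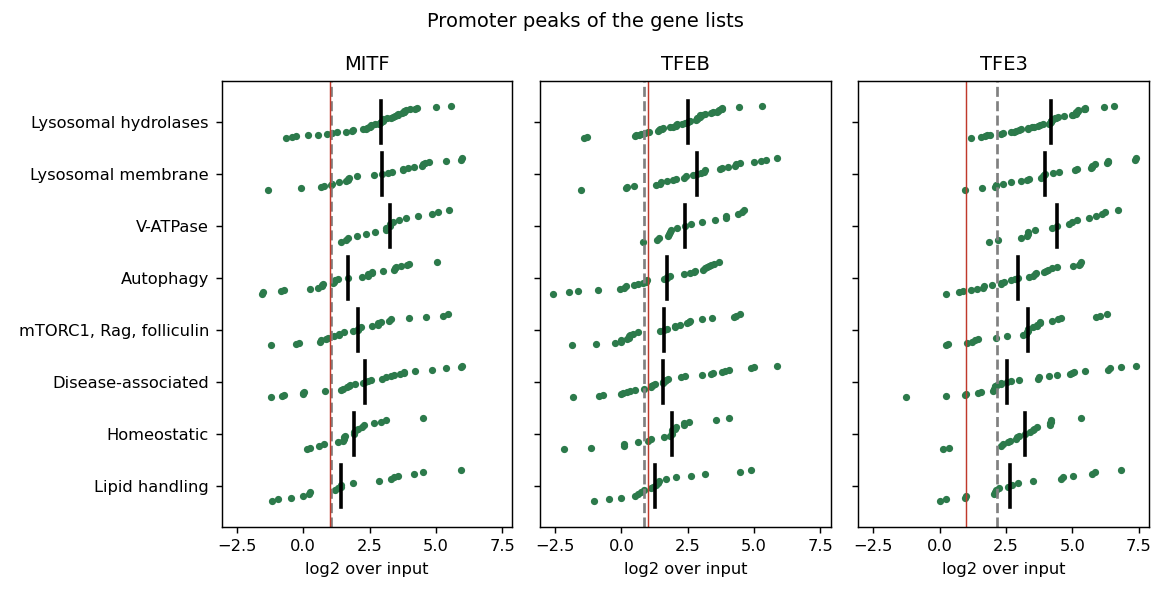
Mean log2 over input (horizontal axes) of the promoter peak of each gene, 1 point per gene, for 8 gene lists and for MITF, TFEB and TFE3. Black bars are list medians, the dashed line is the median of all genes with a promoter peak and the red line is 2-fold; for MITF the lysosomal and V-ATPase medians, near 3, lie right of the dashed line at 1.03.

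Each gene of the factors themselves had bound peaks, as did 10107 of 17123 in all genes, and 40.7% of all peaks were bound. Mitf has several annotated starts, and its promoter peaks differed. The peak at -45 bp had 67.2 MITF tags per 10M in WT and 14.2 in SgshKO, over inputs of 6.53 and 7.19. That was 10.3-fold (7.04 to 15.5) and 1.98-fold (1.22 to 3.26). MITF at this peak was thus lower in the SgshKO pool, by a log2 of -2.87 after TMM scaling (a scaling of the pools by trimmed means). TFEB was lower there too (31.2 in WT and 9.10 in SgshKO, scaled log2 difference -2.00), and TFE3 was higher (28.6 and 78.3, scaled 0.70). A second bound promoter peak, at -317 bp from another start, went the other way for MITF. It had 1.46 in WT and 11.4 in SgshKO over inputs of 1.22 and 0 (scaled log2 difference 1.82). Of 17 peaks assigned to Mitf 13 were bound, and MITF was at least 2-fold higher in SgshKO at 6 of these and at least 2-fold lower at 3. Among them, a peak at -18284 bp from the start had 5.84 and 62.7 over 1.02 and 0. Tfeb had 15 of 27 peaks bound, and its promoter had 25.2 in WT, 3.17-fold over input (2.11 to 4.81), and a nearly equal value in SgshKO over an input of 0. Tfe3 has several annotated starts and 3 of its 5 peaks were bound. At the peak nearest a start there was no MITF tag in either pool, although TFE3 stood at 2.45, while the peak at -66 bp from another start had 44.9 in WT and 24.1 in SgshKO over inputs of 8.78 and 0, in WT 5.11-fold (3.59 to 7.42). Of the 4 peaks of Tfec, which has none within 1 kb, 3 were bound.

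**Figure D3:**
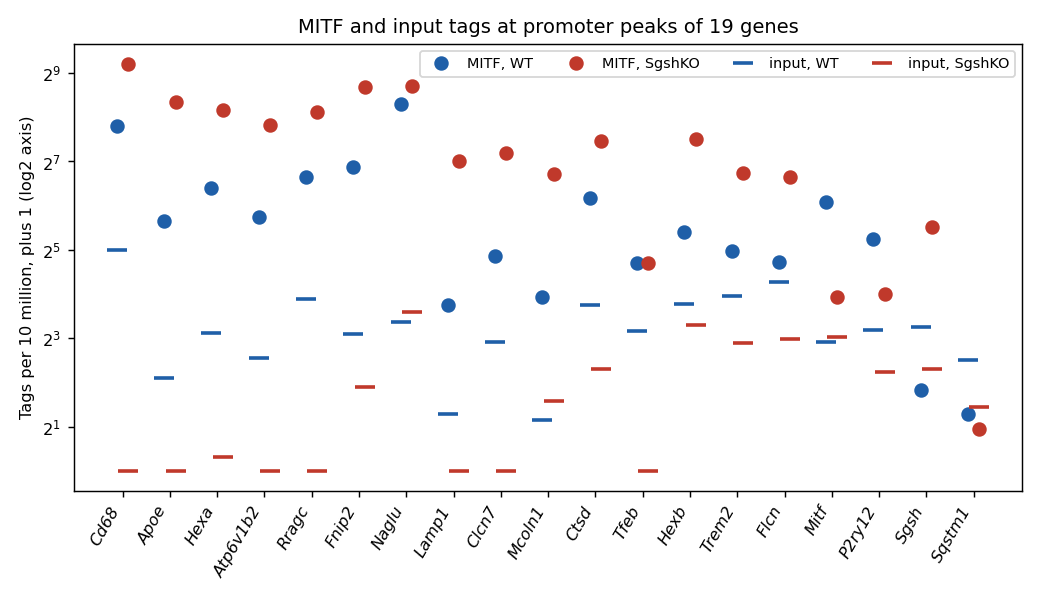
Merged MITF (circles) and input (bars) in tags per 10M plus 1, on a log2 axis, at the peak within 1 kb of the start of 19 genes, in WT (blue) and SgshKO (red). The red circle lies above the blue one at most genes, as at Apoe (49.6 and 323), and below it at Mitf (67.2 and 14.2), P2ry12 (37.2 and 15.1) and, near input, Sqstm1 (1.46 and 0.93). Values are not TMM-scaled, and scaling lowers SgshKO against WT, as at Naglu, where the scaled log2 difference was -0.31.

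MITF sites were largely sites of its relatives. Over all peaks, TFE3 was bound at 59.5% and TFEB at 36.2%. Of the 37331 MITF-bound peaks 32720 (87.6%) were also bound by TFE3, which is 59.9% of the TFE3-bound peaks, and 22791 (61.1%) by TFEB, 68.6% of the TFEB-bound ones. In WT alone the shares were 70.9% for TFE3 and 54.8% for TFEB. All 3 factors shared 21814 (58.4%), where the median MITF ratio was 2.59. TFE3 alone joined MITF at 10906, TFEB alone at 977, and 3634 (9.73%) were bound by MITF only, with a median of 1.46. Across all peaks the rank correlation of the ratios was 0.59 for MITF with TFEB and 0.71 with TFE3, given as a description, since the ratios share input pools and the peaks share libraries. In WT alone the 2 values were 0.43 and 0.50, and in SgshKO alone 0.56 and 0.72. Between the WT and SgshKO pools, MITF over input correlated at only 0.26, and MITF tags per 10M at 0.52. At MITF-bound peaks, which were chosen for MITF, the median log2 ratio of MITF was 0.84 above that of TFEB. Against TFE3 the median difference was -0.65; it turned to 0.01 in WT alone and to 0.18 with each factor centred on its median over all peaks. Antibodies differ in yield, so such differences do not rank occupancy.

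Single peaks with MITF far above both relatives were weak in tags. The 5 largest differences were at peaks in Tlx1, Unc79 and Dnah17, in intron 5 of Tsc22d4, and at the promoter of Rbpms. At Tlx1, a homeobox gene, MITF gave 30.7 tags per 10M in WT and 7.72 in SgshKO, while TFEB and TFE3 gave 0 in all their pools. At Unc79, a gene of a neuronal sodium leak channel, MITF gave 31.8 and 14.8, and the relatives at most 1.68. All 5 had no SgshKO input tag, none was open in oligodendrocytes, and only 2 had enough H3K27ac to test. At the other end, MITF lay farthest below TFE3 at peaks in Arhgap10, Palld and Gpi1, at the Pomp promoter and near Emb, again all with no SgshKO input tag. At Pomp, a proteasome assembly factor, MITF gave 16.8 in WT and 0 in SgshKO, where TFE3 gave 49.0 and 71.5.

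**Figure D4:**
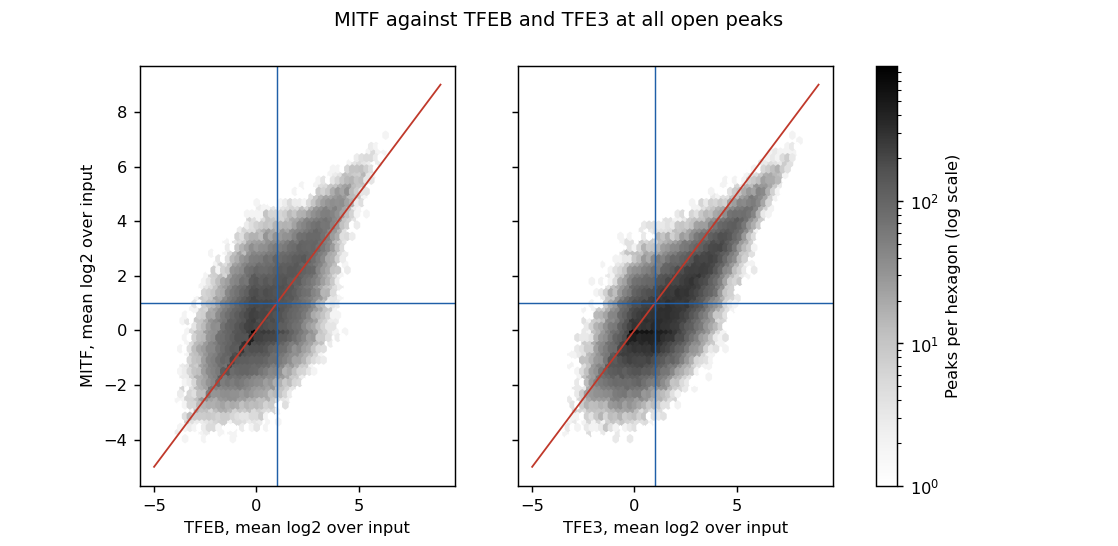
Mean log2 over input of MITF (vertical axis) against TFEB (left) and TFE3 (right) at 91770 peaks, as a density in hexagons with a log color scale. Blue lines mark 2-fold and the red line marks equal ratios; few peaks lie in the upper left of the TFE3 panel, where MITF but not TFE3 passed 2-fold.

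In SgshKO, MITF tags at bound peaks differed in both directions. After TMM scaling of the factor pools, MITF was at least 2-fold higher in SgshKO at 11662 bound peaks (31.2%) and at least 2-fold lower at 10026 (26.9%), against 25.5% and 32.9% of all peaks. The share of higher among these differing peaks was 53.8%, but 72.7% when scaled by library total and 87.3% when the ratios over input were compared, so the balance of gain and loss depends on the scaling. Among peaks at least 16-fold over input 802 (26.7%) were higher and 340 (11.3%) lower. Hydrolase promoters were higher at 21 and lower at 5 of 43, membrane proteins at 16 and 3 of 27, V-ATPase subunits at 10 and 0 of 17, and disease-associated genes at 15 and 3 of 29. Homeostatic promoters were higher at 4 and lower at 4 of 19. Over all genes 3989 were higher and 3321 lower. These counts come from 1 pool per genotype.

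The clearest gains were at distal peaks near 4933427D06Rik, Arl15, Gm12669 and Nnat, and in intron 15 of Ascc2, whose nearest start is that of Uqcr10. Near Arl15 MITF had 0 tags in WT and 772 in SgshKO, over 12 and 10 input tags. In Ascc2 it had 3 and 1350. These 5 were picked for their gain of MITF in SgshKO. H3K27ac was higher in SgshKO at all 5 at both ages (limma), against 7.87% and 6.87% of all tested peaks. Among bound peaks with MITF at least 2-fold higher the shares were 19.8% and 18.1%. Near Gm12669 it went from 0 and 1.1 in the WT libraries at 4 months to 135 and 115 in the SgshKO ones. The clearest losses were near Lilra6 and 9130221F21Rik and in Pxk, Zmynd8 and Snd1, with 177 to 212 tags at Lilra6, 9130221F21Rik and Snd1 in WT and none in SgshKO. The SgshKO input was also 0 at all 5, so the loss cannot be told apart from a region without tags in those pools. H3K27ac was lower in SgshKO at 2 of these 5 at 4 months and at 1, in Snd1, at 8 months, against 4.32% and 6.25% of all tested peaks.

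H3K27ac was measured in separate libraries with replicates, so it offers a tested readout at MITF sites. Of 69663 peaks tested with limma (adjusted p under 0.05 by Benjamini-Hochberg over all), 7.87% had a higher level in SgshKO at 4 months and 4.32% a lower one. At 8 months the shares were 6.87% and 6.25%. Among the 33105 tested MITF-bound peaks, 3564 (10.8%) had a higher level and 1404 a lower one at 4 months; the 8-month counts were 3023 (9.13%) and 2229. With any single library of the age left out, the 4-month counts ranged from 1983 to 3908 (higher) and 548 to 1158 (lower), and the 8-month counts from 1845 to 2204 and 776 to 1672. The lowest counts of higher peaks came without a SgshKO library at 4 months (1983 and 2049) and without a WT library at 8 months (1845 and 1883), where SgshKO replicate 2 left out gave 1995. Bound and 16-fold peaks were chosen on a mean that includes the SgshKO MITF pool, so these counts are not independent of the genotype. At peaks with MITF at least 16-fold over input, 736 of 2969 (24.8%) were higher and 69 lower at the younger age, and 565 higher and 184 lower at 8 months. Chosen by WT MITF alone, an alternative added after seeing the data, 164 of 691 peaks at 16-fold (23.7%) had a higher level and 22 a lower one at the younger age, against 124 and 42 at the older age. Of the 24137 tested peaks bound at 2-fold in WT 9.81% were higher at 4 months, and at 8 months 51.6% of the called ones were, against 52.4% of those called over all peaks. Among peaks that were not bound 5.25% were higher at 4 months. H3K27ac itself was higher at strong MITF sites, with a median of 98.8 tags per 10M against 21.1 at peaks not bound, and its part in these shares was not tested. The shares were close for the 3001 highest peaks of TFEB (23.5%) and TFE3 (25.8%) at 4 months.

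H3K27ac also moved with the change of MITF. Where MITF was at least 2-fold higher in SgshKO, 19.8% of tested bound peaks gained H3K27ac and 1.86% lost it at 4 months, and 18.1% and 2.55% at 8 months. Where MITF was at least 2-fold lower, 3.75% gained and 7.64% lost it at 4 months, and 3.20% and 11.5% at 8 months. Bound peaks with a 2-fold higher TFE3 gained H3K27ac at 29.0% of those tested at 4 months. The rank correlation of the MITF and H3K27ac changes over 33105 peaks was 0.28 and 0.27 at the 2 ages. No peak of 69663 was called different between ages in its response by limma's interaction test, with 4507 at an unadjusted p under 0.05. With 2 libraries per group this test could miss differences, so the responses are not shown to be equal.

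**Figure D5:**
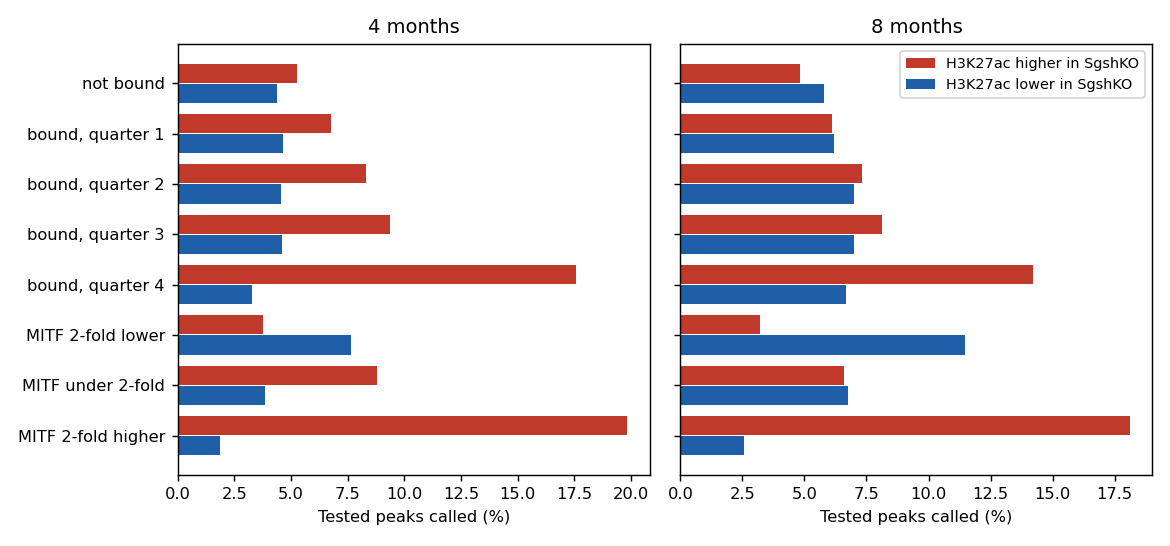
Share of tested peaks (%) with H3K27ac higher (red) or lower (blue) in SgshKO than in WT at 4 and 8 months, for peaks not bound, for 4 equal groups of bound peaks from lowest to highest MITF ratio, and for bound peaks by the change of MITF in SgshKO. At 4 months the red bar grows from 6.79% in the lowest to 17.6% in the highest group, and is 19.8% where MITF was 2-fold higher.

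Among the bound promoters, H3K27ac at 4 and 8 months was higher in SgshKO at 10 and 6 of 37 hydrolase genes, at 3 and 1 of 23 membrane genes, at 1 and 3 of 17 V-ATPase genes and at 10 and 11 of 21 tested disease-associated genes. Lower calls at the 2 ages numbered 0 and 0 for hydrolases, 0 and 1 for membrane genes, 1 and 1 for V-ATPase genes and 0 and 1 for disease-associated genes. At homeostatic genes it was higher at none of 15 at either age, and lower at 1 and 3. Over all genes with a bound promoter, 268 of 6228 were higher and 133 lower at the younger age, and 224 higher and 188 lower at the older one. At Apoe the WT libraries had 23.2 and 28.8 tags per 10M at 4 months and the SgshKO ones 160 and 167, with no overlap. The log2 difference was 2.61 (SE 0.29, adjusted p = 2.19e-08, limma) and 2.70 at 8 months (adjusted p = 1.45e-08). At Cd63 the libraries gave 86.4 and 113 in WT and 240 and 292 in SgshKO at 4 months, a log2 difference of 1.41 (SE 0.18, adjusted p = 3.46e-07, limma).

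Values at other named promoters follow. Fnip2 rose by 0.84 on the log2 scale at 4 months (SE 0.21, adjusted p = 0.00438, limma) and by 1.33 at 8 months (adjusted p = 1.4e-05). Lamp1 rose by 0.62 at 4 months (SE 0.19, adjusted p = 0.0288, limma), and at 8 months its difference was 0.56 (adjusted p = 0.0513). Ctsd differed by 0.06 and 0.23, and neither age passed (adjusted p = 0.868 and 0.391, limma). At the Mitf promoter peak at -45 bp, MITF was lower in the SgshKO pool. H3K27ac there was 48.0 and 44.4 in WT and 66.2 and 64.0 in SgshKO at 4 months. Its log2 difference of 0.49 did not pass (adjusted p = 0.265, limma). At 8 months H3K27ac at this peak rose by 1.00 (SE 0.27, adjusted p = 0.00921, limma). The peak upstream of Mitf rose by 2.79 at 4 months and by 2.07 at 8 months (adjusted p = 1.42e-06 and 0.00018, limma). The Tfeb intron peak rose by 1.21 and 0.88 (adjusted p = 2.77e-06 and 0.000324, limma). Siglech fell by 0.44 at 8 months (SE 0.15, adjusted p = 0.044, limma), and P2ry12 gave -0.37 (adjusted p = 0.0868).

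MITF was also profiled in oligodendrocyte nuclei of the same series, sorted by OLIG2, with 2 MITF and 2 input samples per genotype. Of 82577 open peaks there, 41315 (50.0%) were bound by the same rule. The SgshKO input pool had no tag at 48.9% of these open peaks. Of all 91770 microglial peaks 24.1% overlapped an oligodendrocyte peak by at least 100 bp, and of the 37331 MITF-bound ones a similar share did, 9690. Among the bound it was 61.2% of those within 1 kb of a start and 12.6% of those farther away. Where the site was open in both, 6691 (69.1%) were MITF-bound in oligodendrocytes as well, against 49.8% of open sites that were not bound in microglia. The lysosomal promoters of Naglu and Cd63 were strong in both, at 4.91 and 5.25 on the log2 scale in oligodendrocytes, and so was Rragc at 4.81. Hexa, the strongest hydrolase promoter in microglia, was open there but not bound, at 0.21, with 2.44 MITF tags per 10M in WT under an input of 12.6. Of hydrolase promoter peaks open in oligodendrocytes, 25 of 33 were bound there, against 6116 of 8608 over all genes. The peaks at the Cd68, Trem2 and Lamp1 promoters did not overlap an oligodendrocyte peak.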

How the data were processed

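MITF, TFEB and TFE3 ChIP-seq and input were measured in sorted nuclei of mouse brain. Per the submitters' processing notes Bowtie2, HOMER and DESeq2 were used with the mm10 genome, with no versions given. Per the file headers the deposited values are normalized signal, tags per 10M of each library, counted by the authors in 200 bp (factors) or 800 bp (H3K27ac) around each peak centre; replicates of a factor were merged by the authors. Whole tags could be recovered from all values (100%).

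Ratios were log2((MITF + 1)/(input + 1)), with a bound call at 2-fold of the mean of both genotypes. Genotypes were compared after TMM scaling (edgeR 4.0.16 in R 4.3.3). Intervals are exact conditional binomial 95% limits and cover counting error only; lower limits of a fold set an input of 0 to 3 tags. H3K27ac was tested with limma 3.58.1 (trend, TMM, pseudocount 1, two-sided, Benjamini-Hochberg at 0.05) on all 8 libraries as 4 groups, after edgeR's filter on low values, with the scripts tested on simulated data. DESeq2 1.42.0 was an alternative. Other values used Python 3.11.15, numpy 2.4.6, pandas 2.3.3, scipy 1.17.1 and matplotlib 3.10.9.

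Named peaks followed a rule: the 10 strongest with input tags in both genotypes, 5 in each direction against the relatives and against WT, up to 4 promoters per list and 18 fixed genes. The members and lists were chosen with earlier results of these data known. RefSeq promoter windows matched 173 of 218 list genes; no genome was used, so no distal sequence is shown. A promoter that the rule names is not reported here.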

Additional observations from a re-analysis of the deposited data

How the results depend on the processing

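With a pseudocount of 5 the bound peaks numbered 24856, at a 4-fold threshold 20466 and with 2-fold in each genotype 18531. Between genotypes, scaling by library total left 6292 bound peaks 2-fold lower in SgshKO, and the ratio of the ratios over input gave 26300 higher and 3841 lower. The median difference of MITF from TFE3 turned positive when ratios were centred on all peaks (0.18) or taken in WT only (0.013). For H3K27ac at bound peaks, scaling by library total gave 2152 higher at 4 months and 1824 at 8 months, and moved the share of higher among called peaks at 4 months from 71.7% to 59.2% (8 months: 57.6% to 35.7%). Taking peaks bound in WT alone, an alternative chosen after seeing the data, gave 2368 and 1929 higher of 24137 tested instead of 33105. The 4-fold threshold gave 770 lower at 4 months and 1330 at 8 months, of 19205 tested (4.01% and 6.93%, against 4.24% and 6.73%), and DESeq2 gave 1481 lower at 8 months. With single libraries left out, 4-month counts spanned 1983 to 3908 (higher) and 548 to 1158 (lower), 8-month counts 1845 to 2204 and 776 to 1672; an age left with a lone library in a group is assumed to vary like the other groups. The fewest lower peaks came without SgshKO replicate 1 at 4 months (548) and WT replicate 2 at 8 months (776), followed by WT replicate 1 at either age (670 and 983) and SgshKO replicate 2 at 4 months (899). The cause was not tested. The replicate block gave 3597 higher and 1430 lower peaks (4 months) or 3048 and 2282 (8 months); same-numbered libraries did not deviate together (correlation 0.003 and -0.02), so the numbers do not pair them. Of 88 list counts under alternatives 80 stayed within 1.5 times and 8 moved, and of 231 values of named peaks 148 stayed and 83 moved. None reversed, which says little. That label needed a bound peak to fall below 0, and a pseudocount cannot change the sign of a ratio within a genotype. Of 77 named peaks 70 were bound, 63 with a pseudocount of 5 and 65 with pooled input. Merged pools, clumped tags and empty SgshKO input windows limit every ratio in SgshKO.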
